A study of Arabidopsis thaliana with 42 samples.

Results

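IMA1 (AT1G47400, IRON MAN 1) encodes a short peptide of the iron deficiency response of Arabidopsis, and its transcript was followed through an experiment in which zinc, not iron, was varied. The gene, 1 of 13286 loci named in the annotation used, was read by 1 probe set of the 22746 tested on the ATH1 array. It was chosen, with results of these data known, as the named iron-response gene with the strongest shared root and shoot signal at excess zinc. Its excess against normal zinc differences are therefore given as a description, without a test, while the other comparisons were tested. AT1G47400 lies on chromosome 1 and is annotated as protein coding. Its neighbour in the RefSeq gene order is AT1G47395, the related peptide gene IMA2. Neither IMA2 nor IMA3 had a probe set paired with that gene alone, and whether IMA2 transcript adds to the IMA1 signal was not tested.

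In Arabidopsis, IMA peptides accumulate when iron is scarce and bind the ubiquitin ligases BTS, BTSL1 and BTSL2, which otherwise mark a group of bHLH transcription factors for degradation. Those factors (such as BHLH104, BHLH115 and ILR3) switch on a second tier of regulators, among them the bHLH genes PYE and BHLH101, and through them the genes for iron mobilisation, uptake and transport. IMA1 is known from both roots and leaves of iron-deficient plants. Zinc in excess is known to interfere with iron nutrition of Arabidopsis.

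The 12 groups combined bzip19 bzip23 double mutants or Col-0 wild type plants, roots or shoots, and 3 zinc supplies. The mutants carry T-DNA insertions in both genes, whose products are transcription factors of the zinc deficiency response, and the wild type had the same Columbia background. All plants grew in hydroponics for 3 weeks at 2 µM ZnSO4. In the last week the supply was 0.05 µM in the low, 2 µM in the normal and 25 µM in the excess zinc groups, and plants were 4 weeks old. Each sample pooled 6 plants from 2 containers, and 4 arrays were made per root group and 3 per shoot group, 42 in all. The labels do not say that replicates were separate cultures, so p-values measure only the spread among these samples, which may be technical.

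The bZIP19 transcript checked the genotype labels: mutant minus wild type log2 differences were -5.24 (low), -5.40 (normal) and -5.12 (excess zinc) in roots, and -4.34, -4.43 and -4.05 in shoots. The bZIP23 gene had no probe set paired with it alone, so its disruption was not checked. Means of 3 markers of photosynthetic tissue (RCA, PSAN, CHLM) were 6.71 to 8.37 in roots and 12.8 to 13.1 in shoots. Means of 3 root markers (EXPA7, EXPA18, BGLU23) were 9.09 to 10.1 in roots and 5.74 to 6.45 in shoots. RNA of 1 array stood apart: replicate 1 of wild type shoots at low zinc had a log2 ratio of actin 3′ to 5′ signal of 6.12, against 1.10 to 1.95 on all others. By the date in the array file names, low zinc roots were apart from all other roots, and excess zinc shoots from all other shoots. For those comparisons date and zinc supply cannot be told apart, whereas root excess against normal, shoot low against normal and all genotype comparisons lie within 1 date.

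IMA1 had its highest mean at excess zinc in each tissue and genotype, and no difference between low and normal zinc passed the test. Levels below are RMA values on the log2 scale, on which 1 unit is a doubling of signal, and each mean has its SD over arrays. In mutant roots the 4 arrays read 6.30, 5.61, 6.04 and 5.98 at low zinc (5.98 ± 0.28, SD, n = 4), 6.17, 6.44, 6.29 and 6.31 at normal zinc (6.30 ± 0.11), and 8.54, 8.68, 8.67 and 9.07 at excess zinc (8.74 ± 0.23). In wild type roots they read 5.75, 5.99, 5.89 and 5.64 at low zinc (5.82 ± 0.16), 6.14, 7.79, 7.04 and 6.68 at normal zinc (6.91 ± 0.69), and 8.31, 7.58, 8.93 and 9.01 at excess zinc (8.46 ± 0.66). All 8 root arrays at excess zinc lay above those at normal zinc except for 1 overlap within wild type, where replicate 2 at excess zinc (7.58) read below replicate 2 at normal zinc (7.79).

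In mutant shoots the 3 arrays read 7.30, 6.39 and 6.32 at low zinc (6.67 ± 0.55, SD, n = 3), 7.86, 6.18 and 6.99 at normal zinc (7.01 ± 0.84), and 9.35, 10.37 and 9.52 at excess zinc (9.75 ± 0.55). In wild type shoots they read 7.42, 7.22 and 7.54 at low zinc (7.39 ± 0.16), 7.13, 7.48 and 7.37 at normal zinc (7.33 ± 0.18), and 9.85, 11.27 and 10.03 at excess zinc (10.38 ± 0.77). Every shoot array at excess zinc lay above every shoot array at low or normal zinc, in both genotypes. The spread was uneven: mutant shoots at normal zinc and wild type roots at normal and excess zinc were wide, whereas mutant roots at normal zinc were within 0.27 of each other.

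**Figure D1:**
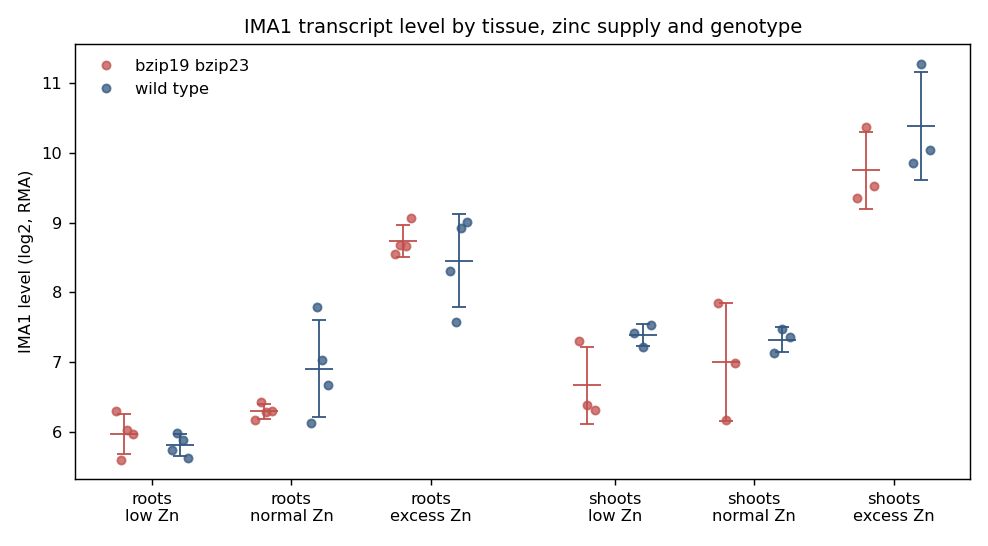
IMA1 level (log2, RMA) on each of the 42 arrays by tissue and zinc supply, mutant left of wild type. Points are arrays, horizontal bars are group means and whiskers are SD (n = 4 per root group, n = 3 per shoot group). The excess zinc arrays lie between 7.58 and 11.27, and the low and normal zinc arrays between 5.61 and 7.86.

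Set in order of their means, the groups ran from wild type roots at low zinc, through mutant roots at low and normal zinc, mutant shoots at low zinc, wild type roots at normal zinc, mutant shoots at normal zinc and wild type shoots at normal and low zinc, to the roots and then the shoots at excess zinc. Within roots, the ranges of neighbouring groups in this order overlapped throughout. Within shoots the single gap without overlap was between wild type at low zinc and the mutant at excess zinc, whose means were 2.35 apart. The position of IMA1 among all probe sets shows where its signal lies on the scale of the array, not how abundant it is beside other transcripts, since probe sets bind their targets unequally. Its mean stood above 34.5% of probe sets in wild type roots at low zinc, 49.8% at normal zinc and 73.5% at excess zinc. In mutant roots it stood above 36.8%, 41.0% and 77.4% in the same order of supply. In mutant shoots these shares were 46.9%, 51.9% and 89.0%, and in wild type shoots 57.6%, 56.6% and 93.5%.

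At excess against normal zinc, the mean IMA1 level was higher in all 4 combinations of genotype and tissue. In mutant roots the log2 difference was 2.44 (SE 0.27), a ratio of 5.42 (95% interval 3.66 to 8.03). In wild type roots it was 1.54 (SE 0.27), a ratio of 2.92 (1.97 to 4.32). In mutant shoots the difference was 2.74 (SE 0.40), a ratio of 6.67 (3.71 to 12.0), and in wild type shoots 3.06 (SE 0.40), a ratio of 8.33 (4.62 to 15.0). Ranked by this difference among 22746 probe sets, IMA1 came 21st in mutant roots and 62nd in wild type roots, and it had the largest value of all probe sets in both mutant and wild type shoots. Over all probe sets, 5.07% passed the test in mutant roots, 9.7% in wild type roots, 3.2% in mutant shoots and 0.62% in wild type shoots. In bulk tissue, a change in RNA per cell and a change in the share of cells that express the gene cannot be told apart. The mean of the photosynthetic markers was 6.84 to 7.81 in mutant roots at excess zinc and 7.78 to 8.37 at normal zinc, and 6.71 to 7.04 in wild type roots at excess zinc and 7.06 to 8.07 at normal zinc. The part of this in the root values was not tested.

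The excess against normal differences of IMA1 can be set beside those of other probe sets as a description, since the choice of the gene rests on them. Taking for each probe set the lowest of its 4 differences, IMA1 had 1.54, behind 1 probe set not paired with a gene (2.22). The next values were those of AT5G05250 (1.15), BHLH101 (1.01) and PYE (0.96). Because the spread of normal zinc arrays enters these differences, the excess against low zinc differences are given too: 2.76 in mutant roots, 2.64 in wild type roots, 3.07 in mutant shoots and 2.99 in wild type shoots. These ratios of 6.77, 6.22, 8.42 and 7.96 span a narrower range than the ratios to normal zinc. In roots and shoots alike they join arrays of different file dates, so date and supply cannot be told apart in them.

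At low against normal zinc, IMA1 showed no difference that passed the test. The largest was in wild type roots, where low zinc arrays read 5.64 to 5.99 and normal zinc arrays 6.14 to 7.79, without overlap. The log2 difference there was -1.09 (SE 0.27, 95% interval -1.66 to -0.53), a 2.13-fold lower level, the 32nd lowest value of 22746 probe sets. It did not pass after adjustment over all probe sets (limma, adjusted p = 0.128). In that comparison 0.132% of all probe sets passed, and for 6.86% the groups did not overlap. The outcome changed with 1 array left out: without replicate 1 of wild type roots at normal zinc (6.14), the difference was -1.35 and passed, with an adjusted p of 0.0291. Without replicate 2 of that group (7.79), it was -0.80 with an adjusted p of 0.352. The 2 dates coincide with the 2 supplies here and cannot be told apart from them.

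In the other low zinc comparisons the 95% intervals included 0. In mutant roots the difference was -0.32 (SE 0.27, 95% interval -0.89 to 0.25, adjusted p = 0.941). In mutant shoots it was -0.33 (-1.18 to 0.52, adjusted p = 0.980), and in wild type shoots 0.06 (-0.78 to 0.91, adjusted p = 0.971). The background shares of probe sets called were 0.0484% in mutant roots, 0.0659% in mutant shoots and 0.703% in wild type shoots. The sign in shoots depended on single arrays: it turned without replicate 1 of mutant shoots at normal zinc (0.09), and in wild type without replicate 3 at low zinc (-0.01) or replicate 1 at normal zinc (-0.03). Without the low zinc array of poor actin ratio, the wild type shoot difference was 0.05.

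Replicate 1 of wild type roots at normal zinc was low not for IMA1 alone. Of the 15 other iron-response probe sets, 10 had their lowest array of the group there, among them S8H (6.02, against 8.30 to 8.66 on the other 3 arrays), PYE (6.99, against 7.53 to 7.97) and MTP8 (5.60, against 6.01 to 6.31). This was noticed after the values were seen. Over all probe sets that array had the lowest mean correlation with the rest of its group, 0.991. At excess zinc the arrays of wild type roots did not line up in this way. Replicate 4 had the highest IMA1 reading (9.01) and the lowest reading of 9 of the 15, and replicate 2 had the lowest IMA1 reading (7.58) and the highest of 10. Here and at normal zinc, the share of all probe sets with such an extreme was not counted. Replicate 2 was also the root array least like its group, correlating at 0.980 on average with the remaining wild type arrays at excess zinc over all probe sets. Without it, the excess against normal difference of IMA1 in wild type roots was 1.83.

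No difference in IMA1 between mutant and wild type passed the test at any supply. In roots, mutant minus wild type was 0.16 at low zinc (95% interval -0.41 to 0.73, adjusted p = 0.886), -0.61 at normal zinc (-1.18 to -0.04, adjusted p = 0.397) and 0.28 at excess zinc (-0.28 to 0.85, adjusted p = 0.647). The value at excess zinc rested on replicate 2 of the wild type, without which it was -0.01. In shoots, mutant minus wild type was -0.72 at low zinc (-1.57 to 0.13, adjusted p = 0.324), -0.32 at normal zinc (-1.17 to 0.53, adjusted p = 0.900) and -0.64 at excess zinc (-1.49 to 0.21, adjusted p = 0.872). All 3 shoot values were below 0 and their intervals include 0, and at normal zinc the sign turned without replicate 2 of the mutant (0.09). The background shares called were 0.0835%, 0.0572% and 1.48% in roots and 5.88%, 0.022% and 0.0308% in shoots, in the order low, normal, excess.

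Whether the zinc response of IMA1 differed between genotypes was tested as an interaction, and it did not pass. The excess zinc interactions are built from the rises for which the gene was chosen. Their tests, and those of mutant against wild type at excess zinc, are thus not independent of that choice. In roots, the mutant's response to low zinc minus that of the wild type was 0.77 (95% interval -0.03 to 1.58, adjusted p = 1.00), with 0.0176% of probe sets called. For excess zinc it was 0.90 (0.09 to 1.70, adjusted p = 0.705), with 0.0132% called. Both contain the wide wild type group at normal zinc. In shoots the corresponding values were -0.40 for low zinc (adjusted p = 0.967) and -0.32 for excess zinc (adjusted p = 0.918), with 0.0132% and 0% called. Each shoot value changed sign without replicate 1 of mutant shoots at normal zinc (0.02 for low and 0.10 for excess zinc). The excess zinc value did so too without replicate 2 of wild type shoots at excess zinc (0.12).

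Between tissues, the wild type at normal zinc had 6.91 ± 0.69 in roots and 7.33 ± 0.18 in shoots (SD, n = 4 and n = 3). Root minus shoot was -0.41 (95% interval -1.12 to 0.29, adjusted p = 0.316), in a comparison in which 60.8% of all probe sets passed. The low zinc response of roots minus that of shoots was -1.16 (-2.16 to -0.16) and did not pass after adjustment (adjusted p = 0.394, with 0.404% called). For excess zinc this difference was -1.51 (SE 0.49, no test), the smaller rise being in roots, and 4.61% of probe sets were called. Low and normal zinc differ in file date in roots alone, and excess and normal zinc in shoots alone. Date and tissue thus cannot be told apart in either response difference. Of the 16 tested comparisons of IMA1, none had an adjusted p under 0.05 and 4 had an unadjusted p under 0.05 (limma): wild type roots at low zinc, mutant against wild type roots at normal zinc, the root interaction of genotype with excess zinc, and the tissue difference of the low zinc response.

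The other measured genes of the iron response were 14 of 47 listed loci, on 15 probe sets, and they were chosen with results of these data known. None of the 4 genes for iron reduction and uptake and none of the 4 for iron storage was among them. Of the 9 listed induced regulators, only BHLH101 and PYE were measured. The list rose in roots at excess zinc: 9 of 15 probe sets passed the test upward in the mutant (list median 1.01, all probe sets -0.03) and 10 of 15 in the wild type (list median 1.11, all probe sets -0.00), with none downward. The background shares called upward were 3.45% in the mutant and 5.96% in the wild type. In shoots 2 of 15 passed upward in each genotype (list medians 0.08 in the mutant and 0.01 in the wild type), against background shares called upward of 2.27% and 0.246%. The pair was BHLH101 and PYE both times.

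The measured ubiquitin ligase genes that act on the iron-response factors, BTSL1 and BTSL2, rose in roots. BTS had no probe set paired with that gene alone. BTSL1 had readings of 10.62, 10.67, 10.66 and 10.89 at excess zinc in mutant roots, against 9.12, 8.98, 9.35 and 9.31 at normal zinc, on its brighter probe set. Its rises on the 2 probe sets were 1.27 and 1.52 in the mutant and 1.50 and 1.69 in the wild type. In shoots BTSL1 averaged 5.43 to 5.90 on that probe set, with excess minus normal differences of 0.23 in the mutant and 0.42 in the wild type that did not pass (adjusted p = 0.538 and 0.470). BTSL2 rose by 0.38 in mutant roots and 0.75 in wild type roots.

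The upstream bHLH factors BHLH34, BHLH104, ILR3, BHLH115 and BHLH121 had no call in any of the 8 comparisons with normal zinc. Their differences at excess zinc lay between -0.30 (BHLH104, wild type roots) and 0.36 (BHLH115, mutant shoots). Of the next tier, PYE, which represses iron transport genes, read 7.90, 8.15 and 7.65 in mutant shoots at excess zinc, against 7.20, 6.80 and 6.83 at normal zinc. In wild type shoots it read 7.88, 8.36 and 8.08 at excess zinc, against 7.11, 6.96 and 7.09 at normal zinc. PYE rose by 1.17 in mutant roots, 1.11 in wild type roots, 0.96 in mutant shoots and 1.05 in wild type shoots (adjusted p = 0.000223, 0.000216, 0.00307 and 0.00155). These 4 values lie close together, whereas those of IMA1 run between 1.54 and 3.06.

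BHLH101, a regulator that acts with FIT on iron uptake genes, rose 2.02-fold in mutant roots, 2.27-fold in wild type roots, 2.20-fold in mutant shoots and 2.46-fold in wild type shoots (adjusted p = 2.09e-05, 1.81e-06, 0.00208 and 0.000553). At normal zinc it averaged 4.38 to 4.78, within or below the range of the disrupted bZIP19 transcript in the mutants (4.46 to 4.92). How far below such a level it lay is not measured, so the size of these rises is uncertain.

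The measured coumarin genes and MTP8 passed the test at excess zinc in roots, except for COSY in mutant roots, and none passed in shoots. S8H, which makes an iron-mobilising coumarin, rose by 2.88 in mutant roots and 3.68 in wild type roots. MTP8, a vacuolar metal transporter gene, rose by 1.96 in mutant and 1.83 in wild type roots, and BGLU42, a beta-glucosidase gene, by 1.36 in mutant and 1.75 in wild type roots. F6'H1, the entry enzyme of the same coumarin pathway, rose by 1.06 in mutant and 1.22 in wild type roots. COSY rose by 0.42 in wild type roots (adjusted p = 0.0182) and had a difference of 0.24 in mutant roots (adjusted p = 0.270). In wild type roots 4 of the 15 list probe sets had a larger rise than IMA1 and in mutant roots 1 did. In shoots none exceeded it.

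The contrast between tissues was tested directly in the wild type. Its excess and normal zinc shoots differ in file date and its roots do not, so date and tissue cannot be told apart here. For 8 of the 15 list probe sets the rise at excess zinc was larger in roots than in shoots (background share called in this direction 3.45%): S8H by 3.69, F6'H1 by 2.45, MTP8 by 1.93, BGLU42 by 1.58, BTSL1 by 1.27 on its brighter probe set and 1.45 on the other, BTSL2 by 0.77 and COSY by 0.59. In wild type shoots the dimmer BTSL1 probe set averaged 4.47 at excess and 4.41 at normal zinc, as low as the disrupted bZIP19 transcript, so any change there is not measured and the 1.45 is uncertain in size. PYE (0.05, adjusted p = 0.956) and BHLH101 (-0.11, adjusted p = 0.855) did not pass. IMA1, with -1.51, lay below all 15. F6'H1 differed most from IMA1 in shoots. It read 8.90, 8.03 and 9.21 in mutant shoots at excess zinc, against 10.10, 9.55 and 9.73 at normal zinc, and 8.98, 7.07 and 8.48 in wild type shoots at excess zinc, against 9.30, 9.71 and 9.23 at normal zinc. The groups did not overlap in either genotype, as for 25.9% of all probe sets in the mutant and 18.9% in the wild type. The differences of -1.08 in the mutant (adjusted p = 0.115) and -1.23 in wild type (adjusted p = 0.180) did not pass.

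**Figure D2:**
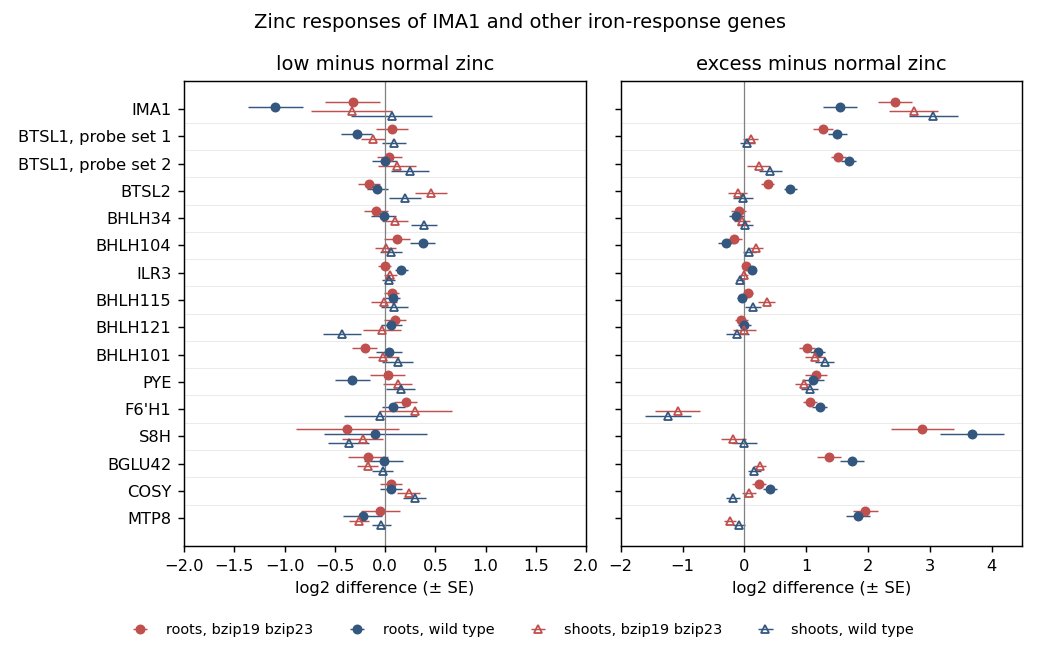
Log2 differences (± SE of the fit) of IMA1 and the 15 other iron-response probe sets, low minus normal zinc on the left and excess minus normal zinc on the right. Filled circles are roots and open triangles shoots, mutant in red and wild type in blue. At excess zinc IMA1 lies between 1.54 and 3.06 in all 4 sets, while S8H, MTP8 and BTSL1 lie far from 0 in roots alone.

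At low zinc none of the 15 list probe sets passed in any of the 4 comparisons (limma); 0 in mutant roots, 2 in wild type roots, 2 in mutant shoots and 3 in wild type shoots had an unadjusted p under 0.05. In wild type roots the list median was -0.00 and the values ran from -0.33 (PYE) to 0.37 (BHLH104), so that all 15 lay above the -1.09 of IMA1. None of the list passed in a genotype comparison or a genotype by zinc interaction either. The largest count with an unadjusted p under 0.05 there was 6 of 15, for mutant against wild type roots at excess zinc. For this and the low zinc counts, the share of all probe sets with an unadjusted p under 0.05 was not counted. In wild type roots against shoots at normal zinc, 10 of the 15 were higher in roots, with 35.6% of all probe sets called in that direction. BTSL1 was higher by 3.96 on its brighter probe set, BTSL2 by 2.55, F6'H1 by 2.41 and BHLH115 by 2.01. IMA1 was below all 15 in this comparison too.

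Within the excess zinc shoots, replicate 2 had the highest IMA1 of its group in both genotypes, with 10.37 in the mutant and 11.27 in the wild type. In either direction, that array was an extreme of its 3 for 13 of 15 other iron-response probe sets in the mutant. In the wild type it was so for 12 of 15. All but the middle of 3 arrays are extremes, so such counts are high for any array. Replicate 3 was lowest for 5 and highest for 5 in the mutant, and lowest for 6 and highest for 4 in the wild type. For replicate 1 these counts were 3 and 4 in the mutant, and 4 and 4 in the wild type. The share over all probe sets was not counted. Replicate 2 was highest in both genotypes for 5 of the 15 (ILR3, BHLH115, BHLH101, PYE and COSY). It was lowest in both for 4 (BTSL1 on its dimmer probe set, BHLH121, F6'H1 and MTP8). PYE reached 8.15 there in the mutant and 8.36 in the wild type, and BHLH101 5.81 in the mutant and 6.17 in the wild type. F6'H1 was at 8.03 in the mutant and 7.07 in the wild type. The labels do not tie the mutant and wild type samples of 1 number to each other. The pattern was picked out after the values were seen and is given as a description of 6 arrays.

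**Figure D3:**
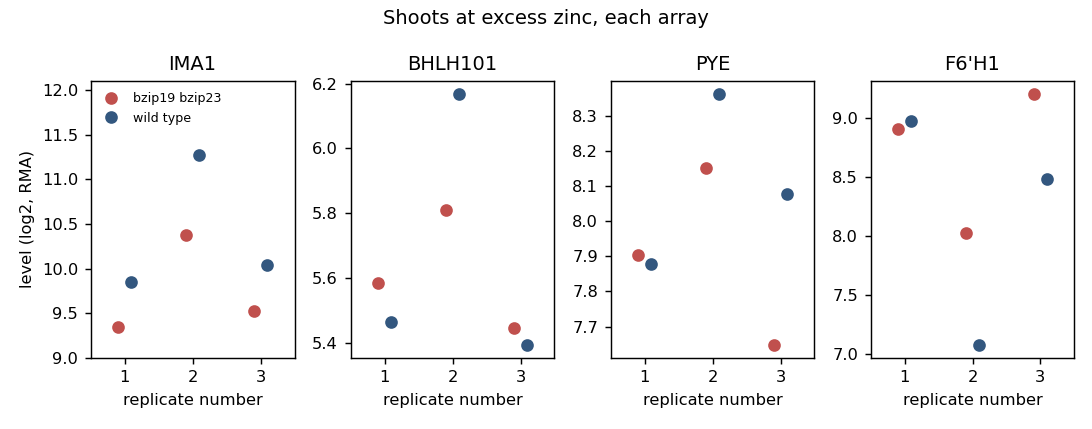
Levels (log2, RMA) of IMA1, BHLH101, PYE and F6'H1 on the 6 shoot arrays at excess zinc, by replicate number, mutant in red left of wild type in blue. Each panel has its own vertical scale. Replicate 2 is highest for IMA1 (10.37 in the mutant, 11.27 in wild type), BHLH101 and PYE, and lowest for F6'H1 (8.03 in the mutant, 7.07 in wild type).

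Over all 18 shoot arrays the deviations from group means gave correlations with IMA1 of 0.68 for PYE, 0.61 for COSY and 0.44 for BHLH101 at the upper end of the list. At the lower end were BGLU42 (-0.59), BTSL1 on its dimmer probe set (-0.58), BHLH121 (-0.47) and F6'H1 (-0.46). The list as a whole had a median correlation of 0.05 there (all probe sets -0.05), with 9 of 15 above 0. Over the 24 root arrays the list median was also 0.05 (all probe sets -0.07), with 8 of 15 above 0. There PYE had 0.29, COSY 0.05, BHLH101 -0.27, BGLU42 -0.07, BTSL1 on its dimmer probe set 0.30, BHLH121 -0.30 and F6'H1 0.25. These arrays share their normalisation and RNA preparation, and the correlations are a description.

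The genes most like IMA1 were ranked by Pearson correlation over the 24 root arrays and over the 18 shoot arrays, taking the lower of both. The points of each correlation share groups, so that the excess zinc arrays weigh heavily. Among the 13512 other probe sets paired with 1 gene, AT5G05250, a gene of unknown function known to be induced by iron deficiency, came first (0.94 in roots and 0.94 in shoots). PYE followed (0.89 and 0.96), then AT3G56360 (0.84 and 0.83), BHLH101 (0.83 and 0.93), the J-domain gene AT1G56300 (0.79 and 0.84) and the thaumatin-like gene AT4G36010 (0.79 and 0.80). The Myb-type gene AT1G49560 (0.77 and 0.82) and the lactate dehydrogenase gene AT4G17260 (0.83 and 0.77) completed the 8. Another 8 probe sets with no gene or several genes named ranked among them.

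The likeness of AT5G05250 to IMA1 was also read without the excess zinc arrays. The arrays left are among those that ranked the gene first, so its values here are no independent evidence. No rank over all probe sets was taken there, and the low and normal zinc root arrays differ in file date. Over the low and normal zinc arrays alone, an alternative chosen after seeing the data, its correlation with IMA1 was 0.73 over 16 root arrays and 0.87 over 12 shoot arrays. PYE had 0.60 and 0.48 there, AT1G49560 0.66 and 0.01, AT4G17260 0.64 and 0.18, and BHLH101 -0.07 and -0.36. In wild type roots AT5G05250 read 7.66, 7.81, 8.20 and 7.52 at low zinc and 7.73, 8.83, 9.07 and 8.44 at normal zinc. Replicate 1 at normal zinc, the lowest of that group for IMA1 as well, lay within the range of the low zinc arrays, and the other 3 lay above it. The low minus normal difference of AT5G05250 was -0.72 and did not pass (adjusted p = 0.268). In mutant shoots at normal zinc its arrays read 9.57, 8.08 and 8.64, in the same order as the 7.86, 6.18 and 6.99 of IMA1.

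The 4 probe sets that ran most opposite to IMA1 were those of the copper amine oxidase gene AT3G43670 (-0.86 in roots and -0.92 in shoots), the pyruvate kinase family gene AT3G49160 (-0.85 and -0.89), the WD40 repeat gene AT1G24530 (-0.82 and -0.82) and AT5G59400 (-0.81 and -0.82). Of the 15 iron list probe sets, 10 correlated positively with IMA1 over the root arrays and 8 over the shoot arrays. The 5 below 0 in roots were the upstream bHLH genes: BHLH104 (-0.65), BHLH121 (-0.30), BHLH34 (-0.20), ILR3 (-0.06) and BHLH115 (-0.03). Several members were like IMA1 in roots and not in shoots. MTP8 had 0.91 in roots and -0.30 in shoots, S8H 0.85 and 0.14, BTSL2 0.77 and -0.45, and F6'H1 0.85 and -0.85.

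**Figure D4:**
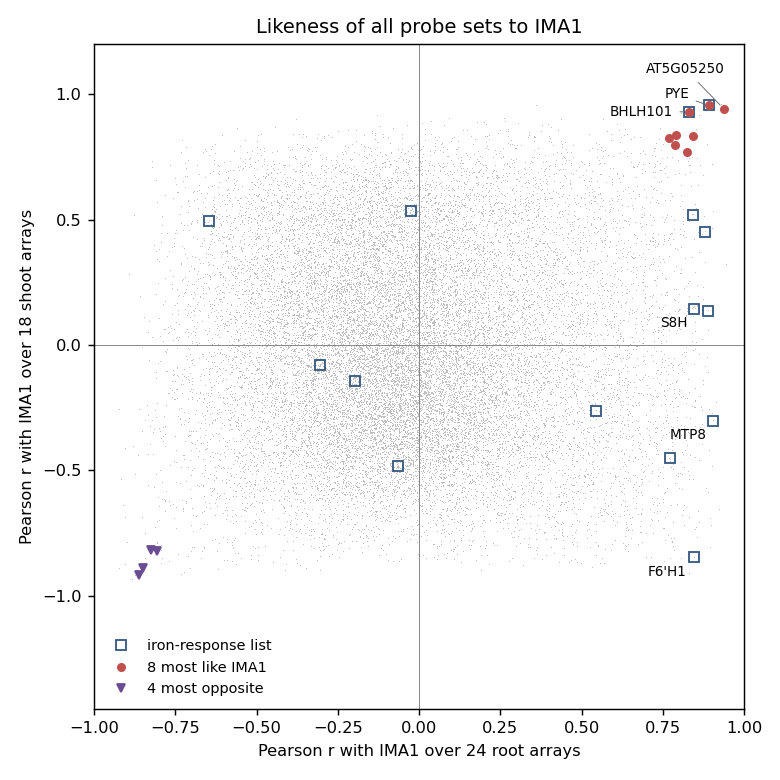
Pearson correlation of every other probe set with IMA1 over 24 root arrays (horizontal) and 18 shoot arrays (vertical). Grey dots are all 22745 probe sets, squares the 15 iron-response probe sets, filled circles the 8 most like IMA1 and triangles the 4 most opposite. AT5G05250 sits at 0.94 on both axes, and F6'H1 at 0.85 in roots and -0.85 in shoots.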

How the data were processed

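RNA of 42 root and shoot samples was hybridised to ATH1 arrays, 1 array per sample. Per the labels' protocols, biotin-labelled targets were prepared from total RNA. The deposited values are log2 values, 1 per probe set, which the authors made with RMA, per the submitters' processing notes, which also name limma (both versions: not given in the sources used here). Array medians were 6.87 to 6.99, and the number of arrays limits the precision. Of 22810 probe sets, 64 controls were left out of the tests and no dim probe set was removed.

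Gene names came from a platform table (13513 probe sets, 59.4%, paired with 1 gene, 503 with several and 8730 with none), of which 13436 matched RefSeq TAIR10.1 genes, used for names and gene order. Comparisons used limma 3.58.1 (R 4.3.3), with root and shoot arrays fitted separately, all 42 together for tissue comparisons, and 1 mean per group. The 21 comparisons were tested two-sided with Benjamini-Hochberg adjustment over 22746 probe sets and a threshold of 0.05. IMA1 was tested in 16 and described in 5. The fits were tested on simulated data. Tables and plots used Python 3.11.15, pandas 2.3.3, numpy 2.4.6 and matplotlib 3.10.9.

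The gene and the lists were chosen with earlier results of these data known. Named genes were IMA1, bZIP19, all measured iron list members, the 8 probe sets paired with 1 gene with the highest likeness and the 4 with the most negative. Likeness is the lower Pearson correlation with IMA1 over root and over shoot arrays, and for opposite genes the higher. Alternatives were other sets of arrays, a filter on dim probe sets, robust moderation, renormalisation, the actin ratio as a covariate, a replicate block and leaving out each array. Whether replicate numbers pair samples was checked from deviations from group means. Every same-number correlation was over 0.1 for mutant against wild type roots at normal zinc alone (0.198 to 0.496). There the block left IMA1 without a call, and 11 probe sets were called with it, against 13 without it. The block was common to all root groups, and a fit paired for this comparison alone was not run.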

Additional observations from a re-analysis of the deposited data

Results flagged for a closer look

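No group of 4 root arrays held an IMA1 value far from the rest, and shoot groups of 3 were not checked. Among the 96 root groups checked over IMA1 and the iron list, 7 held an array whose gap to the nearest other array was large for the range of the group. Chance gives about 1 in 20. S8H had low arrays of 6.62 in wild type roots at low zinc (replicate 4, nearest 8.10) and 6.02 in wild type roots at normal zinc (replicate 1, nearest 8.30). BGLU42 was low at 9.01 in wild type roots at excess zinc (replicate 4, nearest 10.04), the array with the highest IMA1 of its group. F6'H1 was low at 11.61 in mutant roots at low zinc (replicate 1, nearest 11.92). BTSL1 was high on its brighter probe set at 10.89 in mutant roots at excess zinc (replicate 4, nearest 10.67), again the array with the highest IMA1 of its group. BHLH34 was high at 8.60 (replicate 3, nearest 8.22) and ILR3 at 10.63 (replicate 1, nearest 10.39), both in wild type roots at normal zinc.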

How the results depend on the processing

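None of the 16 tested IMA1 comparisons passed under a setting other than leaving out 1 array, and with 1 array left out 1 passed: wild type roots at low zinc, whose differences ranged from -1.35 to -0.80 (adjusted p 0.0291 to 0.366, and 0.0833 to 0.287 under the other settings). Signs turned with 1 array left out, with no value passing, for mutant against wild type roots at excess zinc (-0.0069 to 0.469) and shoots at normal zinc (-0.744 to 0.0946), low zinc in wild type shoots (-0.0314 to 0.150) and mutant shoots (-0.748 to 0.0897), and the shoot interactions of genotype with low zinc (-0.813 to 0.0248) and excess zinc (-0.73 to 0.12); the cause was not tested. The differences at excess zinc kept their sign with each array left out: 2.33 to 2.50 in mutant roots, 1.29 to 1.84 in wild type roots, 2.32 to 3.16 in mutant shoots and 2.62 to 3.32 in wild type shoots. Iron list calls in shoots at excess zinc numbered 4 in the mutant with all 42 arrays in 1 fit, and 1 in each genotype with the filter on a mean of 6, which leaves 11 of 15 probe sets and removes BHLH101. The 8 genes most like IMA1 shared 4 members with the 8 by group means, 3 with those by Spearman's rho and 5 with those by wild type arrays only. Replicate numbers did not pair samples in general (same-number correlations -0.452 to 0.496 in roots and -0.268 to 0.414 in shoots), and a replicate block changed no IMA1 call, with -1.09 and an adjusted p of 0.181 for wild type roots at low zinc; it left 8 of the 9 iron list calls in mutant roots at excess zinc. A fit within 1 file date was not run where date and supply coincide or tissues were compared. With 3 or 4 arrays per group, small differences could not be detected, and the intervals given do not mark that limit. They are not adjusted over all probe sets, whereas the test was, so a larger difference was needed to pass. With all arrays, the -1.09 of wild type roots at low zinc did not pass, although its interval (-1.66 to -0.53) held only negative values.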
